A study of Sus scrofa with 16 samples.

Results

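Short-chain fatty acids, mainly acetate, propionate and butyrate, are made by bacteria that ferment starch and fibre in the large intestine. Colonic epithelial cells sense them through G protein-coupled receptors and take them up through carriers for monocarboxylates, and what passes the colon reaches the liver in portal blood. There acetate and propionate are used for the synthesis of lipids and glucose.

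The genes described here are 4 receptors for free fatty acids (FFAR2, FFAR3, FFAR1 and FFAR4), 3 carriers (SLC16A1, SLC16A3 and SLC5A8), BSG, which escorts SLC16A carriers to the cell membrane, and ACSS2, which turns acetate into acetyl-CoA. Their probes were the non-control probes of the array whose gene name, or symbol in brackets in the description, was one of these 9 names or an older name of the same gene. They were found for 7 of the 9 genes and numbered 16 of the 43603 probes on the array. For FFAR3 and SLC5A8 no probe was found by name, and they were not analysed here. They may be among the 29330 probes without a matched symbol, which were not searched by sequence. SLC16A1 had 7 probes, ACSS2 had 3, FFAR4 had 2, and FFAR2, FFAR1, SLC16A3 and BSG had 1 each.

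The study asked how a diet with raw potato starch, which resists digestion in the small intestine, acts on the transcripts of the pig's colonic mucosa and liver. Duroc × Landrace × Large White barrows received a corn and soybean diet with purified corn starch (the CS group) or the same amount of raw potato starch (the RPS group) from 70 days of age. The starch made up 230 g per kg of the growing diet and, from 120 days of age, 280 g per kg of the finishing diet, and the pigs were slaughtered after 100 days at 170 days of age. From each of the 6 pens of a diet 1 pig was sampled, and 4 replicates of each diet were selected at random for the arrays. Each selected sample of colonic mucosa or liver was hybridized to 1 one-colour Agilent array. This gave 4 arrays for each of Colon_CS, Colon_RPS, Liver_CS and Liver_RPS.

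Each group of 4 arrays filled a slide of its own with its own scan, so that slide and diet, and slide and tissue, cannot be told apart. The share of probes well above background, as marked by the scanner software, was between 64.9% and 72.2% on the colonic arrays and between 61.1% and 65.9% on the liver arrays. The number of arrays limits the precision of every value. Values are log2 signals. They were brought to a common distribution (quantile normalization) over the 8 arrays of 1 tissue where diets are compared and over all 16 arrays where tissues are compared.

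The tissue labels were checked against markers. All 11 hepatocyte markers with a probe were lower in the colon (limma adjusted p under 0.05). Of these, TTR, FGA, FGG and CYP2E1 were above background on no colonic array, so no median difference is given. Of the colonic epithelial markers 9 of 10 were higher in the colon, as were 4 of 4 goblet cell markers and 7 of 9 markers of enteroendocrine cells, the hormone cells in which fatty acid receptors are known to act. GCG, SST, SCG2, PCSK1 and NEUROD1 of the enteroendocrine list were above background on no liver array. The CHGA and PYY probes of that list did not differ at this threshold. CHGA was as bright in the liver as in the colon, with means of 15.50 and 15.44. PYY was above background on all 8 liver arrays, with means of 9.80 in the liver and 10.11 in the colon (limma adjusted p = 0.739).

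A pair of colonic arrays stood apart from the rest, Colon_CS replicate 3 and Colon_RPS replicate 2. The summed signal of the 10 epithelial markers was 767403, 719971, 239858 and 656265 on Colon_CS replicates 1 to 4 and 800793, 346038, 650141 and 837662 on Colon_RPS replicates 1 to 4, and LGALS4 was the brightest marker on 7 of these arrays and KRT8 on Colon_CS replicate 1. The summed signal of the 3 B and plasma cell markers with a probe was 292, 1801, 9540 and 1616 on the Colon_CS arrays and 125, 8096, 388 and 222 on the Colon_RPS arrays. MS4A1 was the brightest of these on each array, and all 3 were above background on each colonic array. The epithelial sum was thus lowest, and the B cell sum highest, on the same 2 arrays, 1 from each diet. These arrays, called below the arrays with high B cell markers, also had the highest sums of the 9 T cell markers (32006 and 28371, with CD247 the brightest). The sums of the 4 goblet cell markers were lowest on them (51861 and 85673, with CLCA1 the brightest). In tissue samples of mixed cells, fewer cells of a type and less RNA per cell cannot be told apart.

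**Figure D1:**
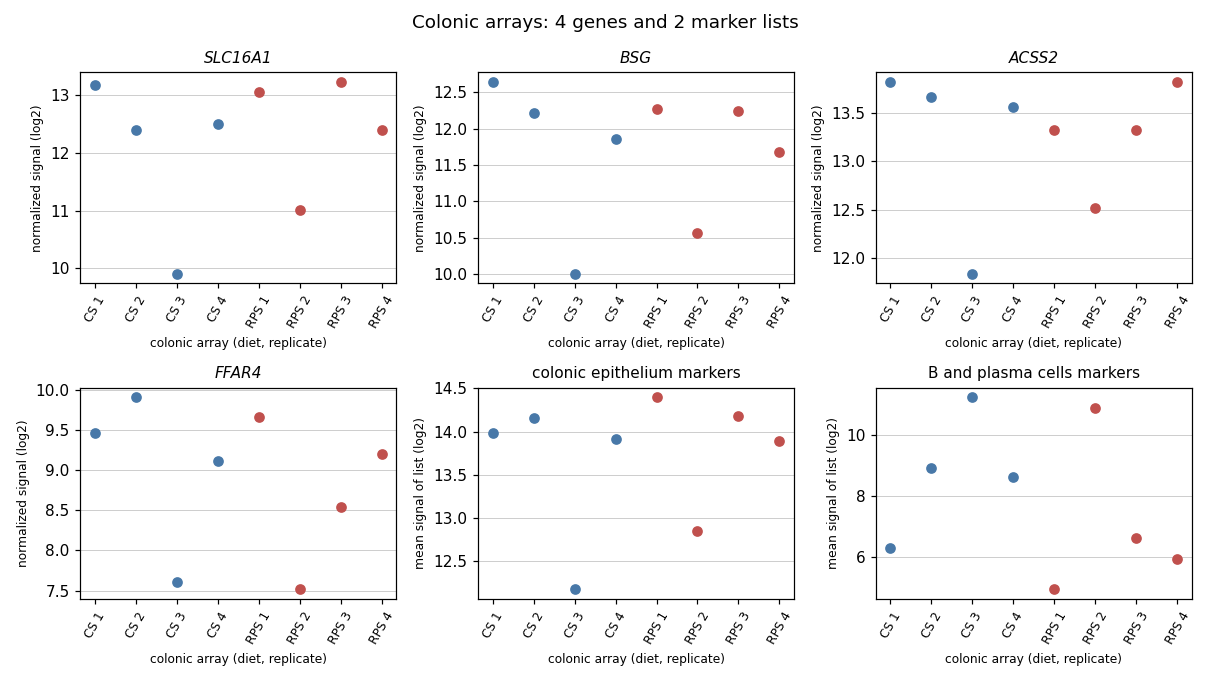
Log2 signal (vertical axis) on each of the 8 colonic arrays (horizontal axis) for SLC16A1, BSG, ACSS2 and FFAR4, with the mean log2 signal of the colonic epithelial markers and of the B and plasma cell markers. On Colon_CS replicate 3 and Colon_RPS replicate 2 the B and plasma cell markers are high, at means of 11.25 and 10.90, and the 4 genes are low.

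The 13 probes of FFAR4, SLC16A1, BSG and ACSS2 exceeded the background clearly on all 16 arrays. The FFAR1 probe was above background on 8 of 8 colonic arrays and on 2 of 8 liver arrays. The FFAR2 and SLC16A3 probes were above background on 0 of 16 arrays, and no fold change is given for them.

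Between the diets, 1 of the 16 probes passed the thresholds of the study in the colon (a fold change above 1.5 at an unadjusted p under 0.05), that of FFAR1, and 0 of 16 did so in the liver. Over the whole array 1283 probes (2.94%) passed in the colon and 1554 (3.56%) in the liver, so that 1 of 16 in the colon is near the background share. After adjustment over all probes in limma, 0 of the 16 probes passed in either tissue, beside 0 (0%) of all probes in the colon and 1 (0.00229%) in the liver. At an unadjusted p under 0.05, without a fold threshold, 1 member probe passed in each tissue, that of FFAR1 in both, beside 5.42% of all probes in the colon and 7.59% in the liver. With the plain test named in the study's methods in place of limma, the FFAR1 probe alone passed both thresholds in the colon and 0 of 16 in the liver, beside 2.21% and 2.63% of all probes. The median log2 difference over the 16 probes was 0.35 in the colon and 0.053 in the liver, beside 0.013 and −0.0038 over all probes. SLC16A1 alone has 7 of the 16 probes, and 3 probes are at background on some or all arrays. Over the brightest probe of each of the 4 genes above background on all arrays, the median was 0.021 in the colon and −0.067 in the liver.

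Between the tissues the genes differed more. At an adjusted p under 0.05, 10 of the 16 probes were higher in the colon and 0 were lower, beside 12649 (29%) higher and 10450 (24%) lower of all probes, or 23099 (53%) in either direction. The 10 were all 7 probes of SLC16A1, both probes of FFAR4 and the probe of BSG. The share of 62.5% is thus close to the 53% of the array, and the 7 SLC16A1 probes read the same gene. The median log2 difference was 1.77 over the 16 probes and 1.44 over the brightest probe of each of the 4 genes above background on all arrays, beside 0.012 over all probes.

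**Figure D2:**
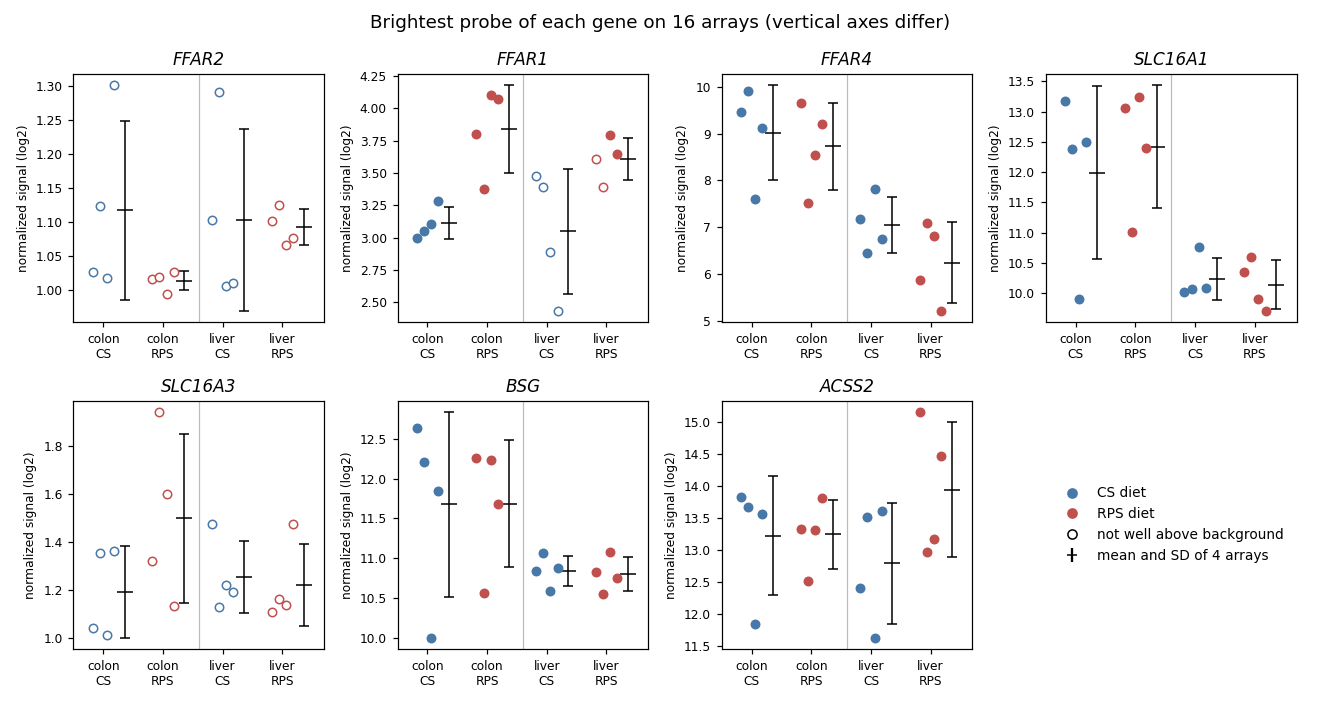
Log2 signal, quantile normalized over 16 arrays (vertical axis), of the brightest probe of each of the 7 genes in the 4 groups (horizontal axis). Each point is 1 array, open where the probe was not well above background, and bars give the mean and SD (n = 4). SLC16A1 and FFAR4 are brighter in the colon than in the liver, while FFAR2 and SLC16A3 are open on all 16 arrays.

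FFAR1 is a receptor best known for long-chain fatty acids, on insulin-secreting and enteroendocrine cells. In the colon its log2 signal was 3.29, 3.35, 3.40 and 3.57 on the Colon_CS arrays and 4.09, 3.66, 4.38 and 4.35 on the Colon_RPS arrays. Each RPS array was above each CS array. The mean was 4.12 ± 0.33 (SD, n = 4) with RPS and 3.40 ± 0.12 with CS, a log2 difference of 0.72 ± 0.18 (SE; 95% confidence interval from 0.30 to 1.13) or 1.65-fold. The limma p was 0.00441 and the adjusted p 0.568, and an exact two-sided permutation test gave 0.0286, the smallest p that 4 against 4 arrays allow.

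The FFAR1 difference in the colon was present only after the arrays were brought to a common scale. As scanned, the FFAR1 signal was between 11.6 and 17.6 on the Colon_CS arrays and between 11.03 and 15.06 on the Colon_RPS arrays, and the groups overlapped (log2 difference −0.056, exact permutation p = 0.743). The median signal of all probes was between 56.3 and 70.8 on the Colon_CS arrays and between 34.2 and 42.5 on the Colon_RPS arrays, and the part of this brightness in the FFAR1 difference was not tested. With a normexp background correction and an offset of 50 the log2 difference was 0.18 and no longer passed the fold threshold, and over the whole array 0.413% of the probes then passed in place of 2.94%. Without both colonic arrays that stood apart it was 0.87 and passed (adjusted p = 0.245, with a range from 0.245 to 1 over the alternatives other than single arrays left out, and from 0.16 to 0.998 with each array left out in turn).

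In the liver the FFAR1 probe was at background on all 4 Liver_CS arrays and above it on Liver_RPS replicates 3 and 4. The log2 signal was 3.19, 3.11, 2.60 and 2.13 on the Liver_CS arrays and 3.32, 3.11, 3.51 and 3.36 on the Liver_RPS arrays. The groups overlapped at Liver_RPS replicate 2. With 6 of the 8 liver arrays at background, no fold is given. The limma adjusted p was 0.658 and the exact permutation p 0.0571, and the probe missed the fold threshold. Without Liver_CS replicate 1 or 2 it came past both thresholds, but the CS arrays that remain are at background and no value is given.

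As scanned, the FFAR1 signal in the liver was between 4.66 and 8.25 with CS and between 8.30 and 11.6 with RPS. These ranges did not overlap (exact permutation p = 0.0286). The same held as scanned for FFAR2 in the colon, where that probe was at background throughout. On the scale of 16 arrays, the mean FFAR1 signal was 3.84 ± 0.34 in Colon_RPS and 3.11 ± 0.12 in Colon_CS (SD, n = 4). No order is given for the liver groups, which are mostly at background. The probe did not pass between colon and liver (adjusted p = 0.437 in limma).

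FFAR2 is the receptor for acetate and propionate on enteroendocrine cells and leukocytes. Its log2 signal was between 0.98 and 1.38 on every array of both tissues, which is background. As scanned, its colonic signal lay between 1.58 and 2.03 with RPS and between 2.24 and 3.72 with CS, without overlap (exact permutation p = 0.0286). All of these values are background. No diet or tissue difference of FFAR2 is read from this probe. FFAR1, FFAR2 and FFAR3 lie as neighbours on chromosome 6 of the pig in the RefSeq table for Sscrofa11.1. The probes of the FFAR1 and FFAR2 genes are shown because 1 of them was the probe past the thresholds and the other was at background throughout, and each reads a stretch of 60 bases of its transcript.
FFAR1: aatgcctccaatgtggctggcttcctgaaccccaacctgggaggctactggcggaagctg
FFAR2: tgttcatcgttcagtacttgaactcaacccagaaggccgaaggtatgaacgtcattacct

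FFAR4 is a receptor for long-chain fatty acids, omega-3 acids among them, that is known in the colonic epithelium. The annotation of the array names both probes by older names of FFAR4, while the RefSeq table for Sscrofa11.1 lists that older name under the gene PDE6C, so the identity of the target rests on the annotation of the array. On the scale of 16 arrays the brighter FFAR4 probe lay between 7.52 and 9.91 in the 8 colonic samples, with a median of 9.16. In the 8 liver samples it lay between 5.22 and 7.82, with a median of 6.79. Only Colon_CS replicate 3 and Colon_RPS replicate 2 reached down into the range of the liver arrays. FFAR4 was higher in the colon by 2.22 ± 0.40 on the log2 scale (SE; 95% confidence interval from 1.37 to 3.07), or 4.66-fold, with a limma adjusted p of 0.000205 and an exact permutation p of 0.000466. The other FFAR4 probe gave 2.18.

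By diet, the colonic FFAR4 signal was 9.64, 10.08, 7.82 and 9.30 with CS and 9.83, 7.74, 8.73 and 9.39 with RPS. The lowest value of each diet came from the array with high B cell markers. With RPS minus CS this gave −0.29 on the log2 scale (limma adjusted p = 0.992, exact permutation p = 0.686). The FFAR4 signal in the liver was 6.96, 6.21, 7.61 and 6.52 with CS and 5.62, 6.86, 6.57 and 4.96 with RPS. The lowest 2 arrays, Liver_RPS replicates 1 and 4, were both from the RPS group, and the groups overlapped.

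The FFAR4 difference in the liver was −0.82 on the log2 scale (95% confidence interval from −1.95 to 0.31, limma adjusted p = 0.760, exact permutation p = 0.200), and −0.85 by the other probe. It was −0.41 with the normexp correction, −0.47 without Liver_RPS replicate 4, and between −1.11 and −0.47 with each array left out in turn. Neither probe passed. The other probe passed both thresholds when Liver_CS replicate 2 or Liver_RPS replicate 2 was left out, and the count of the 16 probes past both thresholds was then 2 and 1, beside 3.72% and 3.66% of all probes. Over the groups on the scale of 16 arrays the mean FFAR4 signal was 9.02 ± 1.00 in Colon_CS, 8.73 ± 0.93 in Colon_RPS, 7.06 ± 0.59 in Liver_CS and 6.25 ± 0.86 in Liver_RPS (SD, n = 4). In the colon the diets differed by less than their spread, and in the liver by about as much as it.

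SLC16A1 is the carrier MCT1, which moves short-chain fatty acids, lactate and ketone bodies together with protons and is the main known route of butyrate into colonic cells. Its brightest probe lay between 9.91 and 13.23 in the 8 colonic samples on the scale of 16 arrays, with a median of 12.45. In the 8 liver samples it lay between 9.71 and 10.76, with a median of 10.08. The colonic samples spread more widely than the liver samples, and only Colon_CS replicate 3 lay inside the range of the liver. SLC16A1 was higher in the colon by 2.02 ± 0.42 on the log2 scale (SE; 95% confidence interval from 1.12 to 2.92), or 4.05-fold, with a limma adjusted p of 0.000803 and an exact permutation p of 0.00155. Over the 7 SLC16A1 probes the difference lay between 1.71 and 2.02, and the adjusted p between 0.000557 and 0.00381.

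By diet, the SLC16A1 signal in the colon was 13.19, 12.45, 10.08 and 12.54 with CS and 13.07, 11.15, 13.24 and 12.46 with RPS. The arrays with high B cell markers held the lowest value of each diet, and the groups overlapped. RPS minus CS was 0.41 on the log2 scale (95% confidence interval from −1.36 to 2.19, limma adjusted p = 0.992, exact permutation p = 0.629). Over the 7 probes it lay between 0.25 and 0.76. Without both arrays that stood apart, the difference of the brightest probe was 0.19 and that between colon and liver 2.60.

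The SLC16A1 signal in the liver was 9.85, 9.92, 10.61 and 9.92 with CS and 10.20, 10.44, 9.74 and 9.54 with RPS. The groups overlapped, and Liver_CS replicate 3 was the highest of the 8. RPS minus CS was −0.096 (95% confidence interval from −0.69 to 0.50, limma adjusted p = 0.968, exact permutation p = 0.743), and over the 7 probes it lay between −0.10 and 0.20. Over the groups on the scale of 16 arrays the mean was 12.42 ± 1.01 in Colon_RPS, 11.99 ± 1.43 in Colon_CS, 10.24 ± 0.35 in Liver_CS and 10.14 ± 0.41 in Liver_RPS (SD, n = 4). The neighbours in this order within a tissue differed by less than their spread.

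The SLC16A1 probes had different targets. A set of 4 lay on a cDNA, from positions 2992, 2993, 3021 and 3244, and of these the probes from 2992, 2993 and 3021 overlap. The other 3 lay on the reference transcript, from positions 327, 419 and 1086. In the colon the 21 pairs of SLC16A1 probes followed each other closely over the 8 arrays (r between 0.931 and 0.998), while in the liver r lay between 0.292 and 0.976. The 12 pairs with 1 probe on each target gave r in the liver between 0.292 and 0.695.

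A liver array that sets the targets apart was Liver_CS replicate 3. There the brightest SLC16A1 probe, on the cDNA, was at 10.61 beside 9.85, 9.92 and 9.92 on the other CS arrays. Of the probes on the reference transcript, the one from 419 was at 7.42 there, beside 7.55, 7.54 and 7.43 on the others. The one from 1086 was at 7.69, beside 7.64, 7.60 and 7.36, and the one from 327 at 8.30, beside 8.13, 8.26 and 8.20. For these last 2 probes the array was also the highest of the CS group, by less than 0.1. The 3 probes on the reference transcript share no run of bases longer than 7, so each is a separate reading of the carrier, and they are shown because all 3 gave the colon above the liver, by 1.83 to 1.89 on the log2 scale.
SLC16A1 from 327: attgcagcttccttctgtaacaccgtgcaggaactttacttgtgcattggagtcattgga
SLC16A1 from 419: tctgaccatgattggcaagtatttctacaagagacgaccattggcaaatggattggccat
SLC16A1 from 1086: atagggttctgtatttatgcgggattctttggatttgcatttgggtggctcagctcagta

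SLC16A3 is the carrier MCT4, known for the export of lactate from glycolytic cells. Its probe was at background on all 16 arrays, with log2 signals between 1.00 and 2.24. Neither a diet nor a tissue difference was detectable with this probe. The SLC16A3 probe came past both thresholds in the colon without Colon_RPS replicate 4, and with scaling to the 75th percentile in place of quantile normalization, which brought the count to 2 of 16 each time, beside 2.78% and 4.51% of all probes. It stayed at background in both diets, and no fold is given.

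BSG (basigin, or CD147) is a membrane glycoprotein that SLC16A1 and SLC16A3 need to reach the cell surface. In the colon its signal was 12.68, 12.28, 10.17 and 11.95 with CS and 12.33, 10.72, 12.31 and 11.79 with RPS. Again the arrays with high B cell markers held the lowest value of each diet. The log2 difference was 0.018 (95% confidence interval from −1.42 to 1.45, limma adjusted p = 1.00, exact permutation p = 0.914). Without those 2 arrays it was −0.16.

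The BSG signal in the liver was 10.69, 10.92, 10.43 and 10.73 with CS and 10.68, 10.40, 10.93 and 10.60 with RPS. All 8 values lay close together, and the groups overlapped over nearly their whole range. RPS minus CS was −0.039 on the log2 scale (95% confidence interval from −0.38 to 0.30, limma adjusted p = 0.984, exact permutation p = 0.714).

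Between the tissues, the BSG signal on the scale of 16 arrays lay between 10.002 and 12.64 in the 8 colonic samples, with a median of 12.03. In the 8 liver samples it lay between 10.55 and 11.07, with a median of 10.83. The 2 colonic arrays with high B cell markers were inside or below the range of the liver, and the other 6 were above it. BSG was higher in the colon by 0.86 ± 0.33 on the log2 scale (SE; 95% confidence interval from 0.16 to 1.56), or 1.82-fold, with a limma adjusted p of 0.0375 and an exact permutation p of 0.0230. The means were 11.69 ± 0.79 in Colon_RPS, 11.68 ± 1.16 in Colon_CS, 10.84 ± 0.19 in Liver_CS and 10.80 ± 0.21 in Liver_RPS (SD, n = 4), and the diets within a tissue differed by less than their spread.

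The BSG call between the tissues depended on the arrays used. It held without Liver_CS replicate 2, Liver_RPS replicate 3, Colon_CS replicate 3 or Colon_RPS replicate 2, and was lost without any 1 of the other 12 arrays, where the difference lay between 0.72 and 0.87 and the adjusted p between 0.0531 and 0.0768. With scaling to the 75th percentile the difference was 0.72 and the adjusted p 0.0646, and at 1.82-fold BSG did not pass where a fold above 2 was also asked for. Without both colonic arrays that stood apart it was 1.33 and the adjusted p 3.4e-06, with a range from 3.4e-06 to 0.0646 over the alternatives other than single arrays left out.

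ACSS2 is the cytosolic and nuclear enzyme that joins acetate to coenzyme A, known as a step towards fatty acid and sterol synthesis and histone acetylation. In the colon the signal of its brightest probe was 13.80, 13.64, 11.93 and 13.55 with CS and 13.33, 12.56, 13.32 and 13.79 with RPS. The arrays with high B cell markers were again the lowest of each diet. The log2 difference was 0.024 (95% confidence interval from −1.06 to 1.11, limma adjusted p = 1.00, exact permutation p = 1.00). It was −0.058 with a normexp background correction and −0.18 without both arrays that stood apart.

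In the liver the ACSS2 signal was 12.35, 13.53, 11.52 and 13.62 with CS and 15.23, 12.95, 13.16 and 14.54 with RPS. The highest arrays, Liver_RPS replicates 1 and 4, were from the RPS group, and the lowest, Liver_CS replicates 1 and 3, from the CS group, with an overlap between. The log2 difference was 1.21 (95% confidence interval from −0.36 to 2.78), or 2.32-fold, with a limma adjusted p of 0.743 and an exact permutation p of 0.171. With each array left out in turn it lay between 0.793 and 1.55. The other ACSS2 probes gave 1.42 and 1.12 (adjusted p of 0.709 and 0.739 in limma). None passed, although the ACSS2 probe from position 614 passed both thresholds without Liver_CS replicate 4 and with all 16 arrays in 1 fit, which brought the count to 1 of 16 each time, beside 3.83% and 3.78% of all probes.

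Between colon and liver the log2 difference of ACSS2 was −0.13, −0.35 and −0.46 by its 3 probes (adjusted p of 0.812, 0.546 and 0.398 in limma), and without both colonic arrays that stood apart the first of these was 0.22. The means of the brightest probe on the scale of 16 arrays were 13.94 ± 1.05 in Liver_RPS, 13.25 ± 0.54 in Colon_RPS, 13.22 ± 0.93 in Colon_CS and 12.79 ± 0.95 in Liver_CS (SD, n = 4). Each differed from its neighbour in this order by less than the larger SD of the pair.

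**Figure D3:**
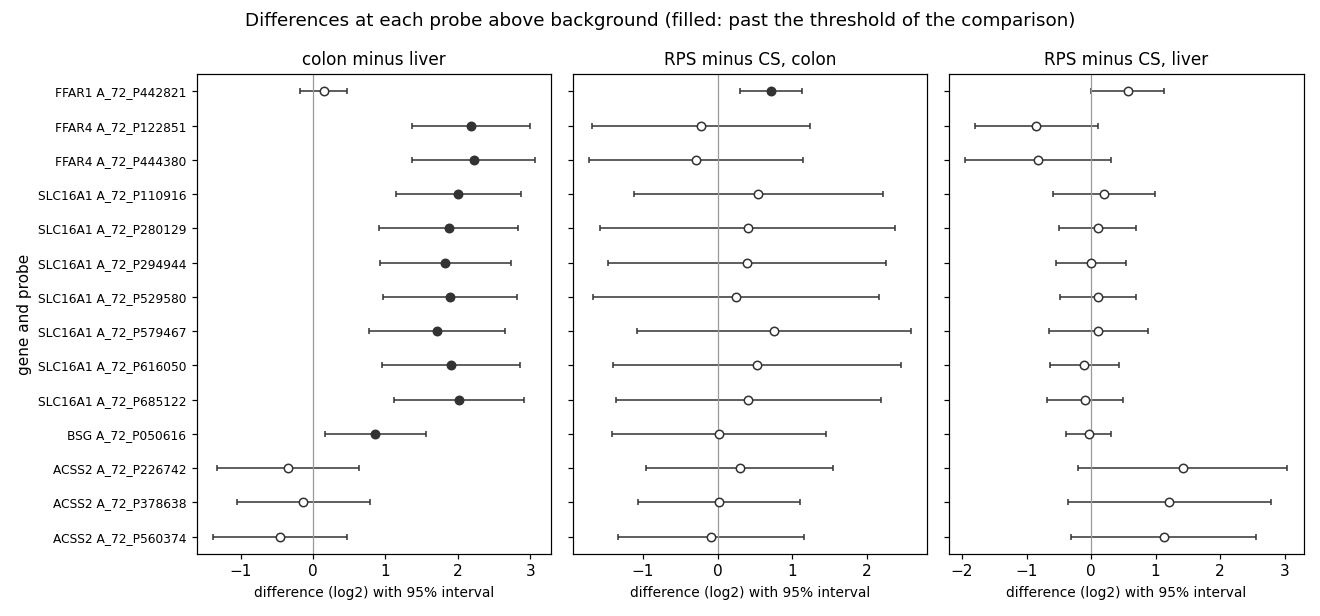
Log2 difference (horizontal axis) with its 95% confidence interval for the 14 probes above background on some array (vertical axis), for RPS minus CS in the colon, RPS minus CS in the liver, and colon minus liver. Filled points passed the threshold of their comparison. The 7 SLC16A1 probes lie between 1.71 and 2.02 for colon minus liver, and the intervals of SLC16A1, BSG and ACSS2 by diet span 0.

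The difference of the diet effect between the tissues was tested in a fit of all 16 arrays. It passed both thresholds for 0 of the 16 probes in limma, beside 1638 (3.76%) of all probes. At an unadjusted p under 0.05 alone it passed for 0, beside 2059 (4.72%) of all probes. At an adjusted p under 0.05 it passed for 0, beside 1 (0.00229%). For ACSS2 the diet effect was lower in the colon than in the liver by all 3 probes, at −1.13, −1.09 and −1.18 on the log2 scale (adjusted p = 0.999 for each). With each array left out in turn the first of these lay between −1.59 and −0.723. For FFAR4 the difference of the diet effects was 0.51, for SLC16A1 0.52 and for BSG 0.049, and for FFAR1 none is given because the Liver_CS arrays are at background. The FFAR4 value was 0.12 with the normexp correction and lay between 0.038 (without Colon_CS replicate 3) and 0.92 (without Colon_RPS replicate 2) with each array left out in turn. Without Colon_CS replicate 3, 1 of the 16 probes passed, that of ACSS2 from position 1732, beside 4.35% of all probes. The same probe passed where arrays of a diet with the same replicate number were taken as the same pig, beside 4.27% of all probes. The labels do not say that they are.

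The genes above background on all arrays varied together in the colon. Over the 8 colonic arrays, which share their 2 slides, r lay between 0.774 (FFAR4 and SLC16A1) and 0.973 (SLC16A1 and BSG) for the 6 pairs of FFAR4, SLC16A1, BSG and ACSS2. These correlations rested on the 2 arrays with high B cell markers. On the other 6 arrays r lay between −0.446 (SLC16A1 and ACSS2) and 0.742 (SLC16A1 and BSG). The part of the marker levels in these genes was not tested.

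In the liver the sign of the correlation differed between the 6 pairs of the same genes. Over the 8 liver arrays SLC16A1 gave r = 0.634 with FFAR4, −0.665 with BSG and −0.440 with ACSS2, and BSG gave 0.295 with ACSS2 and −0.273 with FFAR4. Without the 2 arrays farthest from the median of the gene named first in each pair (FFAR4 before SLC16A1, and before BSG) these were −0.122, 0.058, 0.281, −0.400 and −0.284, so that 4 of the 5 changed sign. FFAR4 and ACSS2 ran opposite to each other, with r = −0.914 and a rank correlation of −0.952. It was −0.961 without the 2 arrays farthest from the FFAR4 median and −0.838 within the 4 Liver_RPS arrays. Within the 4 Liver_CS arrays it was −0.963, but there the other pairs were also strong, such as FFAR4 with BSG (−0.971), BSG with ACSS2 (0.872) and SLC16A1 with BSG (−0.834). The arrays lowest in FFAR4, Liver_RPS replicates 4 and 1, were the highest 2 in ACSS2, and the array highest in FFAR4, Liver_CS replicate 3, was the lowest in ACSS2.

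Among 4890 genes above background on all arrays, those whose pattern over the arrays was most like each of these genes were ranked by the lower of the correlations in the 8 colonic and the 8 liver arrays. The colonic correlations include both arrays with high B cell markers, and none is given without them. For SLC16A1 they included ATP2B1 (0.837) and DLD (0.818). For FFAR4 they were CERS2 (0.844), RBM47 (0.806) and PRELID3B (0.795). For BSG they were SH3YL1 (0.931), JUP (0.901) and SLC9A3R1 (0.897). For ACSS2 they were AK1 (0.922), TALDO1 (0.884) and MVK (0.873). For FFAR1, read in the colon only and among 5347 genes, they were METAP1 (0.978), TMEM184B (0.967) and LOC100154946 (0.966).

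Other carriers of monocarboxylates and of the ions exchanged with them were read from a list of 19 genes, of which 10 had a probe. By diet 0 of 10 passed in the colon and 1 of 10 in the liver, beside 2.94% and 3.56% of all probes. No list median is given for these carriers, because it would rest in part on a probe at background. The 1 was SLC26A6, an anion exchanger, at 7.32, 7.19, 6.43 and 7.06 with CS and 8.13, 7.82, 8.96 and 8.06 with RPS. The groups did not overlap, and SLC26A6 was 2.37-fold higher with RPS (log2 difference 1.24, limma adjusted p = 0.393, exact permutation p = 0.0286).

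Between the tissues 4 of these 10 carriers were higher in the colon and 4 lower, beside 29% and 24% of all probes. SLC26A3, which exchanges chloride for bicarbonate at the colonic surface, was at background on all 8 liver arrays and at least 585-fold higher in the colon. For this bound each value of the group at background is raised to the dimmest signal that counts as above background on its array. The proton exchanger SLC9A3 was also higher in the colon, but its probe was above background on only 5 of 8 liver arrays, and no fold is given. SLC16A7, the carrier MCT2, was higher by 0.99 and ABCG2 by 1.21 on the log2 scale. SLC16A12 was at background on all 8 colonic arrays and at least 109-fold lower in the colon. SLC22A7, SLC16A13 and SLC16A9 differed by −5.82, −2.14 and −1.29. SLC26A6 differed by −0.80 and did not pass (adjusted p = 0.0510), and SLC16A4 was at background in both tissues.

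Of 17 other receptors and proteins that carry the receptor signal, 9 had a probe. By diet 1 of 9 passed in the colon (list median −0.051) and 0 of 9 in the liver (−0.054, limma), beside 2.94% and 3.56% of all probes. The 1 was ARRB2, a beta-arrestin that binds active receptors, at 7.58, 7.80, 8.12 and 7.62 with CS and 7.26, 7.63, 6.72 and 6.71 with RPS. The groups overlapped at Colon_RPS replicate 2. ARRB2 was 1.62-fold lower with RPS (log2 difference −0.70, limma adjusted p = 0.831, exact permutation p = 0.0857).

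Between the tissues 4 of these 9 were higher in the colon and 2 lower, beside 29% and 24% of all probes, with a list median of 0.21. ARRB1 differed by 1.57, and the G protein subunits GNA11, GNAS and GNAI3 by 1.00, 0.57 and 0.21, while GNAI2 (0.50) did not pass. PLCB1, the phospholipase behind Gq-coupled receptors, differed by −1.41. The lactate receptor HCAR1 passed as lower in the colon, but it was above background on 0 of 8 colonic and 1 of 8 liver arrays, and no fold is given. GNAQ (−0.061) and ARRB2 (0.092) did not pass.

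Of 28 enzymes that use short-chain fatty acids, ketone bodies or lactate, or that make lipid from acetyl-CoA, 17 had a probe. By diet 0 of 17 passed in limma in either tissue, beside the same shares of all probes, with list medians of 0.060 in the colon and 0.21 in the liver. Between the tissues 6 of 17 were higher in the colon and 10 lower, beside 29% and 24% of all probes, with a median of −1.07. OXCT1, which opens the use of ketone bodies and is known to be scarce in hepatocytes, differed by 3.91, and the lactate dehydrogenases LDHA and LDHB by 1.81 and 1.36. ACLY differed by 0.51. The lowest were ACACA (−2.58), ECHS1 (−2.44), SREBF2 (−1.50), FASN (−1.50) and ACAT2 (−1.39).

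For the difference of the diet effect between the tissues, 1 of the 10 carriers, 0 of the 9 receptors and signal proteins and 1 of the 17 enzymes passed, beside 3.76% of all probes, and both were lower in the colon. The list medians were 0.089 for the receptors and signal proteins and −0.053 for the enzymes. Both genes are named here after their values were seen. For SLC26A6 the difference of the diet effects was −1.54 on the log2 scale (limma adjusted p = 0.835). For SREBF1, a regulator of lipid synthesis genes, it was −0.63 (limma adjusted p = 0.727), and RPS minus CS was −0.39 in the colon and 0.23 in the liver, without overlap of the diets in either tissue (exact permutation p = 0.0286 in each).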

How the data were processed

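Colonic mucosa and liver were measured on 16 one-colour arrays. Per the file headers the authors had Feature Extraction write a background-subtracted intensity for each spot, not normalized between arrays. The authors also deposited log2 values, quantile normalized over the 16 arrays, which were used as an alternative. Spots that were controls were removed and those marked as outliers were treated as missing. The log2 of the rest was quantile normalized, over 8 arrays for a diet and 16 for a tissue comparison, and averaged per probe. No probe was dropped for low signal. RPS against CS, colon against liver (diet as a term) and the difference of the diet effects were fitted with limma 3.58.1 (lmFit, eBayes) in R 4.3.3 with data.table version 1.17.8, with Benjamini-Hochberg adjustment over 43603 probes. A diet difference passed with a fold above 1.5 and an unadjusted p under 0.05, a tissue difference with an adjusted p under 0.05. Exact two-sided permutation tests over the arrays stand beside single values. The steps were tested on simulated data. Figures were drawn with matplotlib 3.10.9 in Python 3.11.15.

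Gene symbols were matched for 14273 of 43603 probes by symbol, older name, gene number or transcript in the RefSeq annotation of Sscrofa11.1, for 6942 genes in all. Every probe of the 9 genes was read. A gene is given by its brightest probe, and the other genes of the pathway by the brightest probe of each listed gene, naming those past both thresholds by diet and, from the 5 highest and 5 lowest differences between tissues, those given here. Genes named as most like each were taken from the 3 highest by correlation. The genes and lists were chosen with earlier results of these data known. The alternatives were other normalizations and background corrections, the deposited values, a filter on dim probes, other tests and fold thresholds, replicate blocks and each array left out in turn. Leaving out both colonic arrays with high B cell markers was chosen after seeing the data.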

Additional observations from a re-analysis of the deposited data

Results flagged for a closer look

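In 28 groups of 4 arrays, the gap between the highest or lowest array and the nearest other was divided by the range of the group, and in 2 groups this share was above Dixon's 95% critical value. Chance gives about 1 such group in 20. The brightest SLC16A1 probe was highest on Liver_CS replicate 3, at 10.61 with the next array at 9.92 (share 0.902). The brightest ACSS2 probe was lowest on Colon_CS replicate 3, at 11.93 with the next array at 13.55 (share 0.866). The colonic array is 1 of the 2 with high B cell markers, and the part of those markers in the ACSS2 value was not tested.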

How the results depend on the processing

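The count of 10 probes between colon and liver lay between 9 and 10 under every alternative. The share of all probes called lay between 29.4% (with a fold above 2) and 68.6% (with the filter on dim probes). The SLC16A1 and FFAR4 differences kept their call under each alternative. The other counts moved as follows, and the cause was not tested. The colonic count of 1 was 2 with scaling to the 75th percentile, 0 with a normexp background correction and 0 with a fold above 2. The liver count of 0 was 1 with all 16 arrays in 1 fit. The count of 0 for the difference of the diet effects was 1 with the replicate number within a diet taken as the pig. With each array left out in turn the 4 counts lay between 1 and 2 (colon), 0 and 2 (liver), 9 and 10 (colon against liver) and 0 and 1 (difference of the diet effects).

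None of the differences whose sign turned under these alternatives had passed its threshold, although the FFAR1 difference in the colon, which had, was −0.056 in the signals as scanned. ACSS2 in the colon was −0.0577 with the normexp correction. Without both colonic arrays with high B cell markers, a choice made after seeing the data, BSG in the colon was −0.16, ACSS2 in the colon −0.179, ACSS2 between colon and liver 0.217 and the BSG difference of the diet effects −0.135. With each array left out, the colonic differences lay between −0.751 and 0.108 (FFAR4), −0.25 and 0.856 (SLC16A1), −0.515 and 0.373 (BSG) and −0.408 and 0.253 (ACSS2). In the liver they lay between −0.25 and 0.0831 (SLC16A1) and −0.132 and 0.0461 (BSG). ACSS2 between colon and liver lay between −0.357 and 0.095. The difference of the diet effects lay between −0.174 and 0.992 for SLC16A1 and −0.509 and 0.423 for BSG. FFAR1 in the colon stayed between 0.631 and 0.872.

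The labels do not say whether a replicate number stands for the same pig in both tissues. For Colon_CS with Liver_CS 4 of 4 arrays followed their own number best, at r between 0.160 and 0.334 over 23412 probes, and for Colon_RPS with Liver_RPS 0 of 4 did. With the replicate number as a replicate block the colonic count was 1 and the liver count 0. With the replicate number within a diet taken as the pig, the count between the tissues was 10. A fit with the slide as a random block says nothing of a slide effect, since each slide holds 1 group.

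FFAR2 and SLC16A3 were at background, and no fold is given for them under any alternative. FFAR1 in the liver has no value with the filter on dim probes. With 4 arrays a group on 1 slide each, a diet difference cannot be told apart from a slide difference. For FFAR3 and SLC5A8 no probe was found by name.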

Other observations

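Other cell types were read from marker lists in the colon by diet. Of the macrophage markers 3 of 7 were lower with RPS past both thresholds, of the T cell markers 1 of 9 and of the fibroblast markers 1 of 4, beside 2.94% of all probes in either direction. By sign alone, 6 of 7, 9 of 9 and 4 of 4 were lower, with median log2 differences of −0.42, −0.48 and −0.31. Over all probes in the colon, 20818 were lower and 22785 higher by sign. Of 3 B and plasma cell markers 0 passed in limma, with a median log2 difference of −1.60. Of 9 enteroendocrine markers 0 passed and 7 were lower, with a median of −0.30. In the 10 colonic epithelial markers 0 passed and 9 were higher, with a median of 0.18. Of the neutrophil markers 0 of 6 passed and 5 were higher, among them MPO, which was above background on no colonic array. No median is given for this list. Of the smooth muscle markers 0 of 4 passed and 4 were lower (median −0.41). The part of these markers in the values of the fatty acid genes was not tested.

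Between the tissues, T cell markers (9 of 9) and B and plasma cell markers (3 of 3) were higher in the colon, as were 3 of 4 fibroblast markers. Endothelial markers were lower in the colon for 5 of 6 genes, neutrophil markers for 5 of 6 and macrophage markers for 3 of 7. Both red cell markers were lower in the colon. Over all probes 29% were higher and 24% lower.

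FASN, the fatty acid synthase, is given beside ACSS2 in the liver and was chosen after its values were seen. It was at 15.47, 16.67, 13.54 and 16.44 with CS and 17.67, 16.31, 16.17 and 16.52 with RPS. The log2 difference of FASN was 1.14 (limma adjusted p = 0.778, exact permutation p = 0.257), and FASN did not pass. Its lowest array, Liver_CS replicate 3, was also the lowest in ACSS2. Liver_RPS replicate 4, above each CS array in ACSS2, was below Liver_CS replicate 2 in FASN (16.52 and 16.67).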
